A study of Mus musculus with 2 samples.

Results

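The 9 genes described here encode subunits of the Polycomb repressive complexes. They are Ezh2, Ezh1, Eed, Suz12 and Jarid2 of PRC2, and Rnf2, Ring1, Bmi1 and Cbx7 of PRC1. They were chosen by gene symbol from a table of 22383 genes, and all 9 were found, once each. The values come from 2 RNA sequencing libraries of iHFSC2, an immortalized mouse line labelled as hair follicle stem cells. One library came from iHFSC2 cells infected with an empty lentiviral vector. The other came from iHFSC2 cells infected with the lentivirus pwslv-shcircSmad5, which expresses a hairpin aimed at circSmad5, the circular RNA of the Smad5 gene. Both lines were put under puromycin from day 4 and were established at day 15. A control hairpin line was not analysed here, and each group had 1 library, so no difference given here has a replicate check and no test between groups was possible. Differences between separately selected lines cannot be told apart from effects of the hairpin.

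Polycomb proteins keep developmental genes silent through marks on histones. PRC2 methylates lysine 27 of histone H3, with EZH2 or EZH1 as the enzyme and EED and SUZ12 as obligate partners, and JARID2 helps to bring the complex to chromatin. PRC1 places ubiquitin on histone H2A through RING1 or RNF2 (RING1B), each paired with a PCGF protein such as BMI1, and a chromobox protein such as CBX7 reads the mark of PRC2. In skin, these complexes are known for holding back the Cdkn2a locus and the genes of Merkel cells in epidermal progenitors, and BMI1 is known for sustaining self-renewal in several stem cell types.

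The hairpin's target is shown because it defines the comparison, beside the stretch of a member's transcript that shares its longest exact run of bases. Capitals mark that run, and in the target itself the bases that would pair with bases 2 to 8 of an antisense guide.
Target: tccagcagaggacTTGCACTa
Smad5: cggcgggGAGGACTTGCACTA
Ezh1: TCCAGCAGAatttcatggtgg
Jarid2: aCCAGCAGAGattgagcaaga
Cbx7: gCCAGCAGAGtcagtatgaac
Ring1: ttgtGCAGAGGAtccgtttga
Bmi1: cCCAGCAGcaatgactgtgat
The first 10 bases of the 21-base target end exon 4 of Smad5 (plus strand of GRCm38 chromosome 13, 56728620 to 56728629). The other 11 open exon 2 (56723429 to 56723439), in the 5 annotated transcripts that hold both exons. None of these linear transcripts holds the whole target. Linear Smad5 shared a run of 14 bases with it. The 9 Polycomb genes shared runs of 7 to 9 bases, and the median over 11598 measured protein-coding genes was 8. The 7 bases TTGCACT, searched on the sense strand alone, stood in transcripts of 25.2% of these genes and of 4 of the 9 members, Ezh1, Suz12, Jarid2 and Rnf2. Smad5 itself, which relays BMP signals to the nucleus, had 3109 counts with the empty vector and 3413 with the hairpin. Circular and linear transcripts are counted together, so the knockdown cannot be read from them.

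The libraries held 39261010 counts (empty vector) and 38382081 counts (shcircSmad5) in total, and 13596 genes reached 20 counts in 1 or both of them. Ratios are shcircSmad5 over empty vector on counts scaled by TMM, and their 95% intervals cover counting error only. A gene was called higher or lower when it was among these 13596, differed 2-fold or more and had an interval on 1 side of a ratio of 1. Basal keratinocyte genes were abundant, with Krt5 at 2390 and 2660 FPKM and Krt14 at 2360 and 3360 FPKM. Of the bulge markers, Cd34 had 0 counts in both libraries (3 counts is the limit that 0 allows), Lhx2 had 4 and 5, and Krt15, at 253 and 79 counts, was 3.27-fold lower. Sox9, a regulator of bulge cells, was abundant, at 8829 and 5301 counts (54.4 and 33.4 FPKM), with a log2 ratio of -0.77. Summed levels of the other marker lists were low. The 6 fibroblast genes read summed to 0.409 and 0.171 FPKM, nearly all from Pdgfra, with Col1a1, Dcn and Lum at 0 counts in both libraries. The 4 endothelial genes summed to 0.451 and 0.124 FPKM, most of it from Pecam1. The 2 Merkel cell genes read summed to 2.86 and 0.719 FPKM, nearly all from Isl1 (2.84 and 0.717). The 3 melanocyte genes summed to 3.67 and 2.18, most of it from Mitf, and the 3 immune genes to 5.10 and 4.66, most of it from Cd68. Each of these sums thus follows 1 gene.

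All 9 Polycomb genes were expressed in both lines, and none differed by 2-fold. By the size rule, 0 of 9 were called, where the same rule called 14.7% of all genes measured. It called a smaller share of well-counted genes, 439 higher and 463 lower among the 10872 with at least 100 counts. All 9 lay within 1.5-fold between the libraries, as did 71.0% of all genes and 79.1% of genes with at least 100 counts, a minimum that every member passed. Their median log2 ratio was 0.03, beside -0.02 over all genes and -0.05 over protein-coding genes. With TMM scaling, the counting interval excluded a ratio of 1 for 4 of the 9, against 73.3% of all genes. Those were Ring1 and Ezh2, with more counts per library size in the shcircSmad5 library, and Bmi1 and Rnf2, with fewer. Intervals were not compared across scalings, and small ratios moved with them. Under the other settings the log2 ratio of Ezh2 ranged from 0.02 to 0.25. That of Rnf2 ranged from -0.17 to -0.07, and that of Jarid2 from 0.07 to 0.27. The ratios of Bmi1 and Ring1 lay farthest from 1, in opposite directions, and which was farther depended on the scaling (-0.38 and 0.47 with total counts). Of all genes measured, 38.9% had a larger difference in either direction than Bmi1, and 41.8% a larger one than Ring1. In RNA from whole cultures, fewer cells that express a gene and less RNA per cell cannot be told apart.

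**Figure D1:**
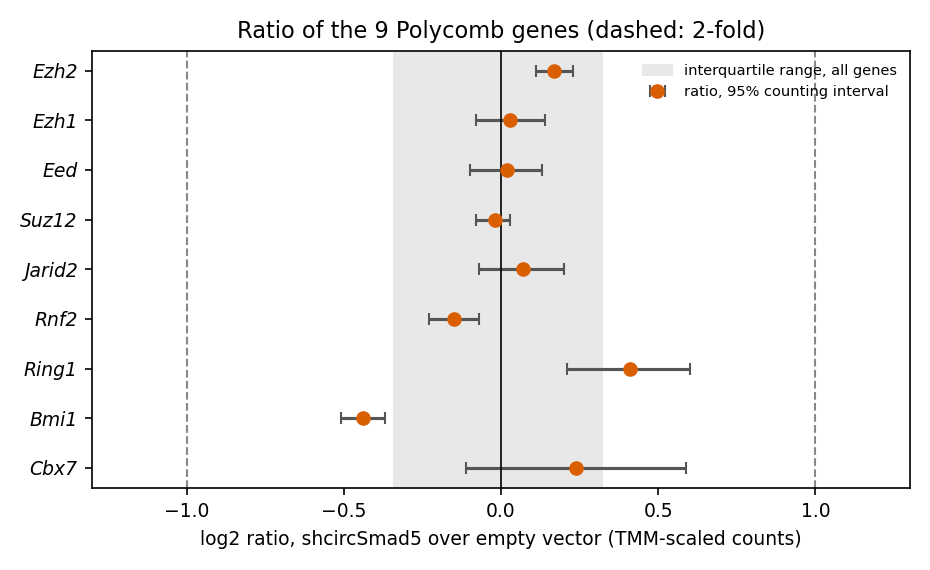
Log2 ratio (shcircSmad5 over empty vector, TMM-scaled counts) of each of the 9 genes, 1 library per group, with 95% counting intervals as bars, the interquartile range of all genes shaded and 2-fold marked by dashed lines. All 9 points lie between -0.44 (Bmi1) and 0.41 (Ring1), inside the dashed lines.

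The level per length, in FPKM, spanned a wide range among the members. Suz12 was the highest, at 27.4 FPKM with the empty vector and 28.1 with the hairpin, above 84.2% and 85.1% of measured protein-coding genes. Cbx7 was the lowest, at 0.499 and 0.614 FPKM, above 10.4% and 11.6%. The order was the same in both libraries: Suz12, Bmi1, Ezh2, Rnf2, Eed, Ezh1, Ring1, Jarid2 and Cbx7. In the empty vector library, 2 pairs of neighbours in that order did not differ beyond counting error. Suz12 was 1.03 times Bmi1 (0.993 to 1.08), and Ezh2 was 1.01 times Rnf2 (0.963 to 1.07). In the shcircSmad5 library the same pairs were apart, at 1.38 times (1.32 to 1.44) and 1.26 times (1.20 to 1.33). The spread between cultures was not measured, so the order is that of these libraries.

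**Figure D2:**
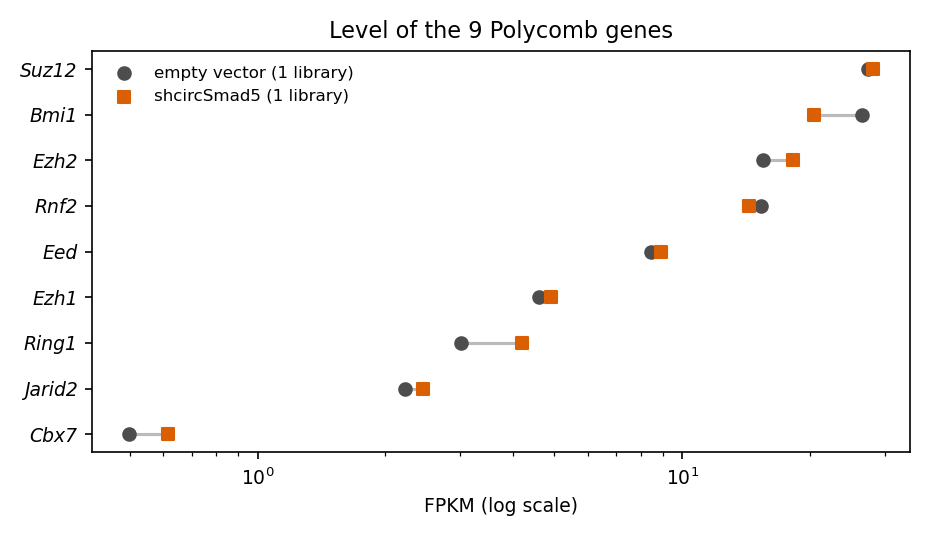
Level of each gene in FPKM (log axis) in the empty vector library (circles) and the shcircSmad5 library (squares), 1 library each, joined by a line. The order from Suz12 (27.4 and 28.1) down to Cbx7 (0.499 and 0.614) is shared, and the longest lines belong to Bmi1, Ring1 and Cbx7.

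With TMM scaling, the PRC2 members Ezh1, Eed, Suz12 and Jarid2 did not differ beyond counting error, and Ezh2 differed by 1.13-fold. Ezh2 (ENSMUSG00000029687, GRCm38 chromosome 6, 47530139 to 47595341, minus strand), the main H3K27 methyltransferase of dividing cells, had 4054 counts with the empty vector and 4658 with the hairpin. Its level was 15.5 and 18.2 FPKM, with a log2 ratio of 0.17 (0.11 to 0.23). The median of the genes on chromosome 6 was 0.15, so Ezh2 differed from its chromosome by 0.02. Ezh1 (chromosome 11, 101191115 to 101226463, minus strand), the paralog that predominates in resting tissue, had 1347 and 1403 counts, or 4.61 and 4.91 FPKM, with a log2 ratio of 0.03 (-0.08 to 0.14) that was -0.07 with each chromosome centred at its median. Within a library, where scaling plays no part, Ezh2 stood at 3.35 times Ezh1 in FPKM with the empty vector and 3.70 times with the hairpin. The second ratio was 1.10 times the first (exact conditional counting interval 1.01 to 1.20). Ezh2 made up 77.0% and 78.7% of the summed Ezh1 and Ezh2 level.

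Both structural partners had nearly the same counts in each library. Eed (chromosome 7, 89954654 to 89980983, minus strand), the subunit that binds trimethylated H3K27, had 1268 and 1309 counts (8.44 and 8.91 FPKM) and a log2 ratio of 0.02 (-0.10 to 0.13). Suz12 (chromosome 11, 79993106 to 80034123, plus strand), the scaffold of PRC2, had 5311 and 5335 counts and a log2 ratio of -0.02 (-0.08 to 0.03), which was above 0 under 4 of the other settings. Suz12 stood at 3.24 and 3.16 times Eed in FPKM. The difference between these ratios did not exceed counting error, at 0.973 times (0.892 to 1.06). Jarid2 (chromosome 13, 44729474 to 44921643, plus strand), an accessory subunit, had 852 and 912 counts, 2.23 and 2.45 FPKM, and a log2 ratio of 0.07 (-0.07 to 0.20). Genes on chromosome 13 were lower as a whole, with a median of -0.21. Its 2 measured coding neighbours within 1 Mb, Dtnbp1 and Mylip, had log2 ratios of -0.47 and -1.16, both below that of Jarid2.

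The catalytic pair of PRC1 had ratios on opposite sides of 1. Rnf2 (chromosome 1, 151458004 to 151500955, minus strand), the more abundant E3 ligase, had 2473 and 2278 counts, 15.3 and 14.4 FPKM, with a log2 ratio of -0.15 (-0.23 to -0.07). Ring1 (ENSMUSG00000024325, chromosome 17, 34020792 to 34024680, minus strand), its paralog, had 385 and 521 counts, 3.02 and 4.19 FPKM, with a log2 ratio of 0.41 (0.21 to 0.60), a 1.33-fold higher level. Rnf2 was 5.05 times Ring1 in FPKM with the empty vector and 3.44 times with the hairpin. The second ratio was 0.681 times the first (0.588 to 0.788). Rnf2 therefore made up 83.5% and 77.5% of their sum, and the sum itself was 18.3 and 18.6 FPKM.

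Ring1 lay above the median of its surroundings. The 642 other measured genes of chromosome 17 had a median log2 ratio of -0.38, the lowest of the members' chromosomes, and Ring1 lay 0.79 above it. Ring1 sits beside the major histocompatibility genes, and 48 of the 56 measured protein-coding genes that start within 1 Mb of it had a lower ratio, as did 79.1% of all measured genes. Their median was -0.46, with a range of -4.84 to 2.56. Within 250 kb, 21 of 24 had a lower ratio, and the median was -0.28. Among the neighbours within 1 Mb, the antigen presentation gene H2-K1 went from 1327 to 649 counts and was 2.09-fold lower. The start of H2-K1 lies 24.3 kb away. The matrix gene Tnxb, 646 kb away, with 388 and 30 counts, was 13.2-fold lower. The ribosomal protein gene Rps18, with 1673 and 6240 counts, was 3.65-fold higher, and its value is uncertain where reads were shared among its processed copies.

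Bmi1 was the lowest of the 9 by ratio. Bmi1 (ENSMUSG00000026739, chromosome 2, 18677018 to 18686629, plus strand), the PCGF subunit also called PCGF4, had 4127 counts with the empty vector and 3111 with the hairpin. Its level was 26.5 and 20.4 FPKM, with a log2 ratio of -0.44 (-0.51 to -0.37), a 1.35-fold lower level. The median of its chromosome was -0.16, and the 8 measured coding genes within 1 Mb had a median of -0.38, with 3 of them below Bmi1. Its upstream neighbour Commd3 had 2865 and 2561 counts and a log2 ratio of -0.19. The lipid kinase gene Pip4k2a, 321 kb away, had 968 and 450 counts and was 2.20-fold lower. The gene Gm5946 resembles Bmi1 at 97.0% identity over 2658 bases, so reads can be shared between them. Gm5946 had 26 and 15 counts, few beside those of Bmi1.

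**Figure D3:**
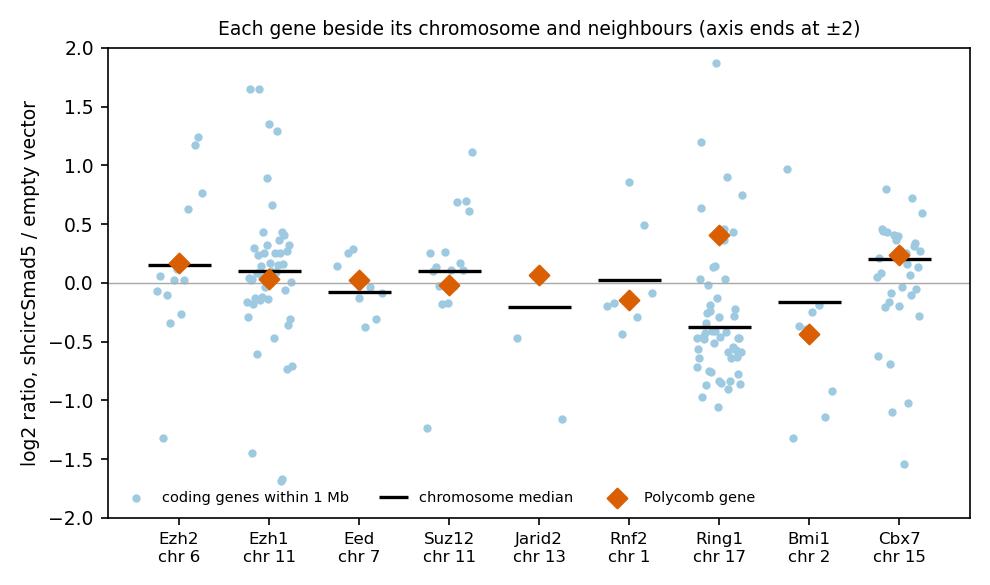
Log2 ratio (vertical axis, shcircSmad5 over empty vector) of each Polycomb gene (diamond), of the measured protein-coding genes that start within 1 Mb (small points) and the median of its chromosome (bar), 1 library per group. Of 202 neighbours, 191 lie inside the axis and 11 beyond 2 in either direction are not drawn. Ring1 lies 0.79 above the bar of chromosome 17, and Ezh2 and Cbx7 lie on theirs.

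Cbx7 (chromosome 15, 79915807 to 79971119, minus strand), a chromobox reader of H3K27 methylation known from embryonic stem cells, was sparse. It had 127 and 153 counts and a log2 ratio of 0.24 (-0.11 to 0.59), beside a median of 0.20 on chromosome 15. Its difference was not detectable at this depth. Its relatives Cbx2 and Cbx6 were more abundant, at 10.9 and 9.79 FPKM and at 7.81 and 9.72 FPKM. Cbx2 had 1825 and 1600 counts and a log2 ratio of -0.22 (-0.32 to -0.12), and Cbx6 had 3253 and 3956 counts and one of 0.25 (0.19 to 0.32).

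Among the PCGF partners of the ring finger ligases, Bmi1 had the highest level per length, in FPKM, in both libraries. That rank depended on the length correction. In counts Pcgf3 was higher, at 7176 and 6819 against 4127 and 3111 for Bmi1. Bmi1 made up 36.8% of the summed PCGF level with the empty vector and 30.4% with the hairpin, while the sum over 6 genes was 71.8 and 67.1 FPKM. Pcgf3, a subunit of variant PRC1, followed at 19.2 and 18.6 FPKM, with a log2 ratio of -0.10. Pcgf2 (MEL18), the paralog closest to BMI1, had 836 and 688 counts and a log2 ratio of -0.31 (-0.46 to -0.16). Pcgf5 had 2736 and 3492 counts and a log2 ratio of 0.32 (0.25 to 0.39). Pcgf6 had a log2 ratio of 0.11 and Pcgf1 one of -0.03.

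**Figure D4:**
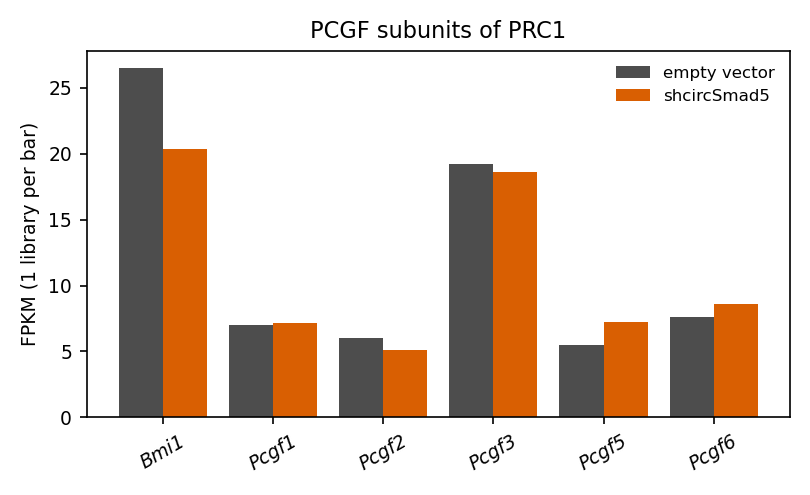
Level in FPKM (bars from 0, 1 library per bar) of the 6 PCGF genes in the empty vector and shcircSmad5 libraries. Bmi1 is the tallest bar in both (26.5 and 20.4), and Pcgf3 follows (19.2 and 18.6).

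Over 54 listed subunits of PRC1 and PRC2, 49 were measured, 0 were called higher and 1 was called lower, against 8.43% and 6.24% of all genes. Those shares are smaller among the 10872 genes with at least 100 counts, where 439 were higher and 463 lower. The median log2 ratio of the 49 subunits was -0.04, which ranged up to 0.04 under other settings. Of the 49, 42 lay within 1.5-fold, as did 79.1% of genes with at least 100 counts. Leaving out the 9 members, 40 were measured, with 1 lower and a median of -0.09. The gene called lower was Epop, a PRC2 accessory subunit that binds elongin, which went from 219 to 36 counts (2.41 and 0.405 FPKM), 6.21-fold lower. No gene was called in the core PRC2 list (6 measured, median -0.00), the catalytic and PCGF list (8, median -0.07), the chromobox and polyhomeotic list (9, median 0.24) or the variant PRC1 list (20, median -0.15). Under the other settings, the first of these medians lay between -0.02 and 0.07 and the second between -0.10 and 0.01. The chromobox and polyhomeotic median lay between 0.04 and 0.32, and the variant PRC1 median between -0.15 and -0.07. The histone-binding subunit genes Rbbp4 and Rbbp7 had log2 ratios of -0.04 and -0.82. The polyhomeotic gene Phc2 had 6210 and 4853 counts and one of -0.39. Among variant subunits, the kinase subunit gene Csnk2a1 had a log2 ratio of -0.31, Mga one of -0.21 and the deubiquitinase gene Usp7 one of -0.03.

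The subunits on the X chromosome had ratios below those of most others. Rbbp7 had 5797 and 3346 counts. The BCL6 corepressor genes Bcor and Bcorl1, of variant PRC1, had 2139 and 1327 counts and 1414 and 804 counts, with log2 ratios of -0.72 and -0.84. These 3 were all the X-linked subunits measured, with a median of -0.82, against -0.03 for the 46 autosomal ones. The median of the 373 measured genes on the X chromosome was -0.43. They were singled out after their values were seen.

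Genes for enzymes that oppose Polycomb, and for their partners, held no calls. Among the 10872 genes with at least 100 counts, 439 were called higher and 463 lower, so 0 calls in short lists does not set them apart. Of 10 measured genes for removal of H2A ubiquitin or H3K27 methylation, 0 were called (median -0.05, which was not below 0 under 4 other settings). All 10 lay within 1.5-fold, as did 79.1% of genes with at least 100 counts. Asxl1, a partner of the deubiquitinase BAP1, had a log2 ratio of -0.17, and the forkhead genes Foxk2 and Foxk1 had ones of -0.32 and -0.06. Of 11 trithorax group genes, which encode or assist H3K4 and H3K36 methyltransferases, 0 were called (median -0.08). The most counted were Kmt2d, Kmt2c and Ash1l, with log2 ratios of -0.08, -0.23 and 0.08.

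Genes that Polycomb is known to repress were read from lists, and the calls over these lists together went both ways. Over all genes, 8.43% were called higher and 6.24% lower, and each list held few measured genes. Of 8 genes held back in epidermis, 4 had enough counts, and Krt18 had 0 counts in both libraries. Whether reads of Krt18 were lost to similar transcripts was not checked, so 0 counts need not mean that it was silent. Of the 4, 1 was higher and 1 lower. Krt8, a simple-epithelium and Merkel cell keratin, had 493 and 1437 counts (6.41 and 19.1 FPKM) and was 2.85-fold higher. Isl1, a homeodomain factor gene of Merkel cells, had 442 and 109 counts (2.84 and 0.717 FPKM) and was 4.14-fold lower. At the Cdkn2a locus, which encodes the inhibitors INK4A and ARF, Cdkn2a had 786 and 676 counts and a log2 ratio of -0.25 (-0.40 to -0.10). The adjacent Cdkn2b had 796 and 621 counts and one of -0.39 (-0.54 to -0.23). Both lie on chromosome 4, whose median was -0.20.

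Of 35 developmental regulators, 7 had enough counts, and all 7 had ratios below 1 (median -0.72). By the size rule 3 of them were lower and 0 higher. Irx3 went from 396 to 197 counts (2.05-fold), the thyroid and kidney factor gene Pax8 from 248 to 83 (3.05-fold) and the endoderm factor gene Gata6 from 222 to 111 (2.04-fold). Irx3 and Gata6 lay just past the 2-fold limit, and with total counts in place of TMM 1 gene of the list was called. With no count minimum the list's median was -0.23. Of 17 measured Hox genes, 2 were higher and 1 was lower, with a median of 0.15 that reached 0.00 in 1 setting. Those 3 are a share near the 14.7% called over all genes. Hoxb5 had 58 and 158 counts (2.67-fold higher), Hoxa6 had 11 and 51 (4.54-fold higher), and Hoxa10 had 20 and 3 (6.81-fold lower). Hoxa6 and Hoxa10 reached the minimum of 20 counts in 1 library alone, which favours a large ratio. Their log2 ratios had wide intervals, 1.22 to 3.27 and -5.16 to -1.01. With a minimum of 100 counts 1 Hox gene was called.

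**Figure D5:**
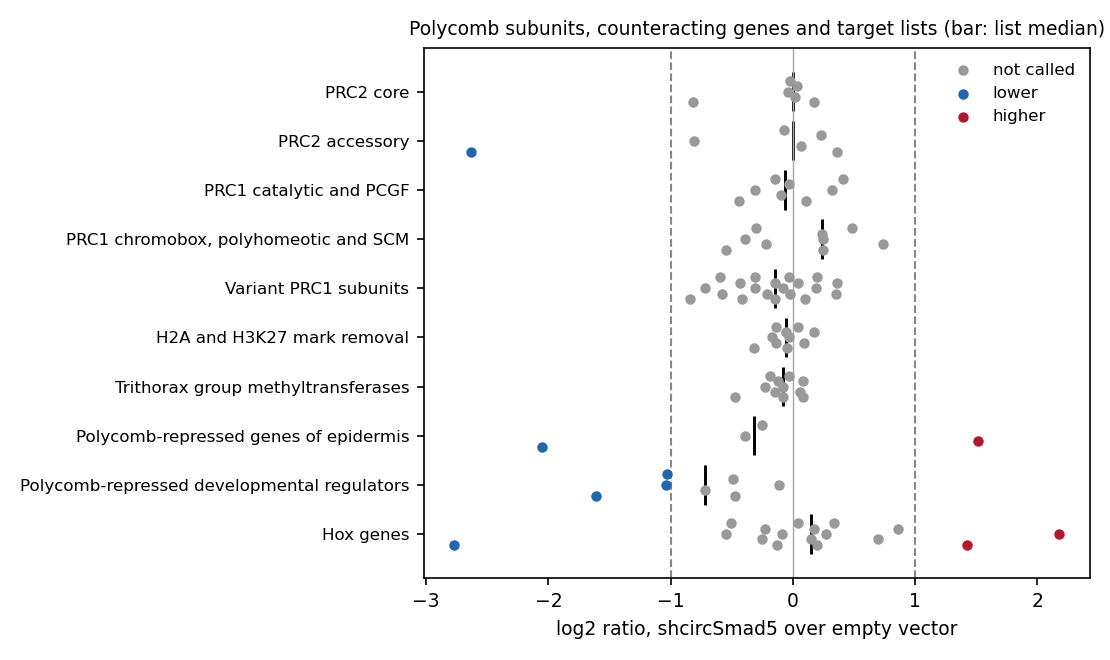
Log2 ratio (horizontal axis, shcircSmad5 over empty vector) of each measured gene in the 10 lists, 1 library per group, with called genes in red (higher) or blue (lower), list medians as black bars and 2-fold as dashed lines. Among the subunit lists the single coloured point is Epop (-2.63). The coloured points of the repressed-gene lists together lie on both sides of 0, and those of the developmental regulators all lie below it.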

How the data were processed

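Total RNA of both lines (3 µg each) was depleted of ribosomal RNA and made into strand-specific libraries, per the labels' protocols. The submitters' processing notes name HISAT2, HTSeq 0.13.5, GRCm38 and GRCh38, with no role for each. The annotation and strand setting were not given in the sources used here. Whole-number, unnormalized counts per gene and FPKM values were deposited by the authors for each library. The deposited FPKM equalled the count divided by the column total and a whole gene length, within 0.001 bases, for 100.0% of genes above 0.

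Counts were scaled by TMM (edgeR 4.0.16, R 4.3.3). Each ratio's 95% interval is exact (Clopper-Pearson, scipy 1.17.1), from how a gene's counts divide over the libraries. No molecular identifiers are described in the labels, so reads are not taken as independent molecules and the intervals cover counting error only. The size rule was tried on simulated counts with known folds, scaled by total counts. That simulation held counting error only, so it cannot show how the rule behaves with differences between cultures or lines. Positions, biotypes and transcripts came from GENCODE M21 (GRCm38), and similar transcripts from blastn (90% identity over 200 bases).

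The members and lists were chosen with earlier results of these data known. Named are the 9 members, Smad5, up to 6 called genes per list with the most counts (or the 3 with the most counts where none was called), and up to 3 called neighbours per member with at least 100 counts. 1 gene so chosen is not reported here. The X-linked subunits, Cbx2, Pcgf1, Pcgf2, Pcgf6, Sox9, Cdkn2a, Cdkn2b, Commd3, Dtnbp1, Gm5946, the family shares, the 1.5-fold count and the Suz12 over Eed ratio were added after their values were seen. Alternatives were other scalings (DESeq2 1.42.0 size factors among them), fold limits, count minimums, FPKM with 0.1 added, and chromosome centring.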

Additional observations from a re-analysis of the deposited data

How the results depend on the processing

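No paired analysis was possible because each group has 1 library. The count of members called was 0 under every scaling, fold limit and count minimum tried, and their median log2 ratio stayed between 0.02 and 0.11. With each chromosome centred, Ring1 was at 0.79, Bmi1 at -0.27 and Ezh2 at 0.02. The sign turned for Ezh1 (-0.07, chromosome centring) and for Suz12, up to 0.05. Over all genes, 1146 higher and 848 lower became 1892 and 1753 at 1.5-fold, 591 and 422 at 3-fold, 439 and 463 with a minimum of 100 counts, and 535 and 740 among protein-coding genes alone, where the balance is toward lower. Fewer genes or other limits change the size of these counts by construction. The balance turned toward lower with a minimum of 100 counts and among protein-coding genes alone. That direction is not set by construction, and its cause was not tested. Cbx7, on 127 and 153 counts, was limited most by depth, with an interval of -0.11 to 0.59.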
